A study of Mus musculus with 8 samples.

Results

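The genes described here encode the lysosomal proton pump, the cathepsins and the abundant lysosomal membrane glycoproteins LAMP1 and LAMP2. They were taken from the table of 22173 genes by symbol: those beginning with Atp6v or Atp6ap, Cts followed by a single letter, Lamp1 and Lamp2. The rule itself used only symbols, although it was set with earlier results of these data known. It gave 46 genes, of which 25 encode pump subunits or accessory proteins, 18 encode cathepsins and 2 encode LAMP proteins. The remaining gene, Atp6v1fnb, is named for its place beside Atp6v1f, is not a pump subunit and had 0 counts in every library.

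RNA was sequenced from skeletal muscle of C57BL/6 mice, an inbred laboratory strain, that were obese through their diet. The mice were 24 weeks old. One group received liraglutide, an agonist of the receptor for the gut hormone GLP-1, at 0.2 mg/kg/day under the skin for 9 weeks, and the group labelled model received saline. Each group held 8 mice, of which 4 gave a library, and each library has its own code in its title. No lean mice were analysed here. The labels do not name the muscle that was sampled.

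The proton pump, or V-ATPase, is a rotary enzyme of the lysosomal membrane. Its V1 sector sits in the cytosol and hydrolyses ATP, and this turns a rotor that drives protons through the membrane-bound V0 sector into the lysosome. The acid interior activates the cathepsins, proteases of the cysteine, aspartic and serine classes that degrade delivered protein. In muscle, lysosomal breakdown works beside the proteasome in protein turnover and rises in fasting and wasting. Cathepsins and some pump subunits are also plentiful in macrophages and in osteoclasts, the cells that resorb bone.

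Library totals ran from 15033631 to 18244579 counts. Muscle fibre markers, led by Myh4, were abundant in each library, as the labelled tissue calls for. They summed to 160511 to 169935 CPM (each count relative to its library total) with liraglutide and to 147893 to 151539 CPM without, and 4 of 9 were called higher and 0 lower. Epididymis markers also separated most libraries by group: 8 of 9 tested were called lower, with 35 to 55.8 CPM in the model libraries and 0.474 to 2.29 CPM in 3 liraglutide libraries. Liraglutide 2 had 148 CPM, nearly all Crisp1. Over all tested genes 5.45% were called higher and 4.83% lower, a call being defined below. The part of these marker shifts in the results was not tested. An earlier analysis of these data left out liraglutide 2 together with model 3. Where the call of a gene named here ended without both, this is stated beside it. In bulk tissue, fewer cells of a type and less RNA per cell cannot be told apart. The p-values measure the spread between these libraries.

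Levels are given as scaled FPKM, which is the deposited FPKM (the count scaled by gene length and library total) divided by the library's TMM factor of 0.954 to 1.03. This places them on the same scale as the tests. Changes are log2 fold changes, liraglutide minus model, from edgeR's quasi-likelihood test, and a call means a Benjamini-Hochberg adjusted p under 0.05 over all 12963 tested genes. Of the 46 genes, 33 passed the filter on low counts and were tested, which were 19 of 25 pump genes, 12 of 18 cathepsins and both LAMP genes.

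Pump transcripts stayed near the model level as a group, and cathepsin transcripts leaned lower. Among the 19 tested pump genes, 2 were called higher (Atp6v1f and Atp6v0c) and 1 lower (Atp6v0d2). Among the 12 tested cathepsins, 0 were called higher and 3 lower (Ctsl, Ctsk and Ctso). Neither LAMP gene was called. Over all tested genes edgeR called 10.3%, with 5.45% higher and 4.83% lower, beside which 6 of the 33 tested members (18.2%) were called. The called changes were at most 1.45-fold, except that of Atp6v0d2, a gene of 9 to 80 counts per library. Without liraglutide 2 and model 3, where 5.38% of all genes were called (2.82% higher and 2.56% lower), 0 pump genes were higher, Atp6v0d2 was lower and Ctsl was the single cathepsin called.

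**Figure D1:**
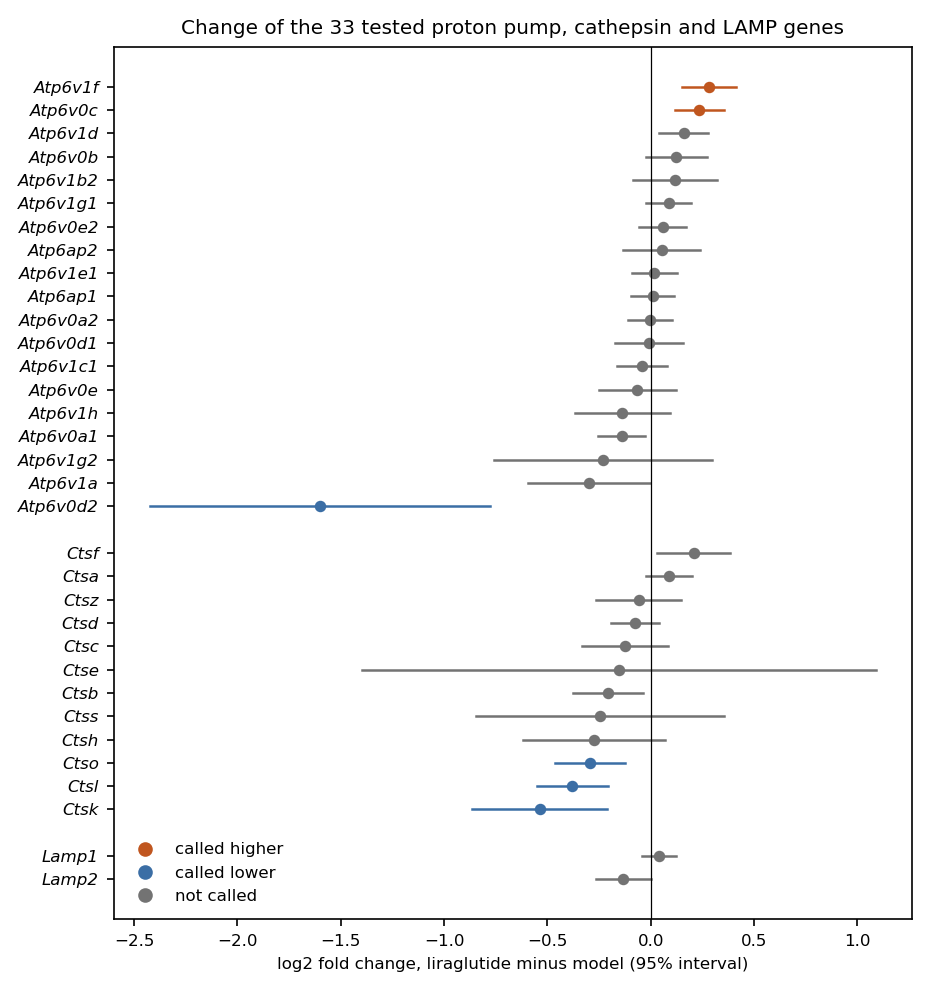
Log2 fold change (liraglutide minus model, x axis) of the 33 tested genes with 95% intervals from the edgeR fit, grouped into pump, cathepsins and LAMP genes. Atp6v1f and Atp6v0c lie to the right of 0, and Atp6v0d2, Ctsk, Ctsl and Ctso to the left, while the intervals of most other genes include 0.

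The median log2 fold change was 0.0089 for the tested pump genes and -0.18 for the tested cathepsins, beside -0.012 for all tested genes. The pump median turned negative with raw library sizes (-0.067) and in limma on FPKM, whereas the cathepsin median was negative under each alternative. The median of the pump exceeded that of the cathepsins by 0.19, against a spread between libraries of 0.119 (SD) for the same quantity. Positive changes were seen in 10 of 19 pump genes and in 2 of 12 cathepsins. No test was made of the classes as such.

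Summed over the class, the pump reached 580, 574, 586 and 556 scaled FPKM in liraglutide libraries 1 to 4. In model libraries 1 to 4 it reached 547, 529, 532 and 557. These ranges meet at their edges, since liraglutide 4 lay just below model 4. The cathepsins summed to 798, 732, 738 and 701 with liraglutide and to 855, 768, 753 and 862 in the model group, which also overlapped. The ratio of the pump sum to the cathepsin sum, from which library scaling cancels, was 0.727, 0.784, 0.794 and 0.792 with liraglutide and 0.639, 0.689, 0.706 and 0.646 without. All 4 liraglutide libraries had a higher ratio than any model library. Most of the cathepsin sum was Ctsd and Ctsb, and neither was called. The ratio was not computed with an offset for gene length or GC content. The ratio of geometric means, which weighs the tested genes equally, ran from 1.02 to 1.18 with liraglutide and from 0.891 to 1.24 without, so on that measure the groups overlapped.

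**Figure D2:**
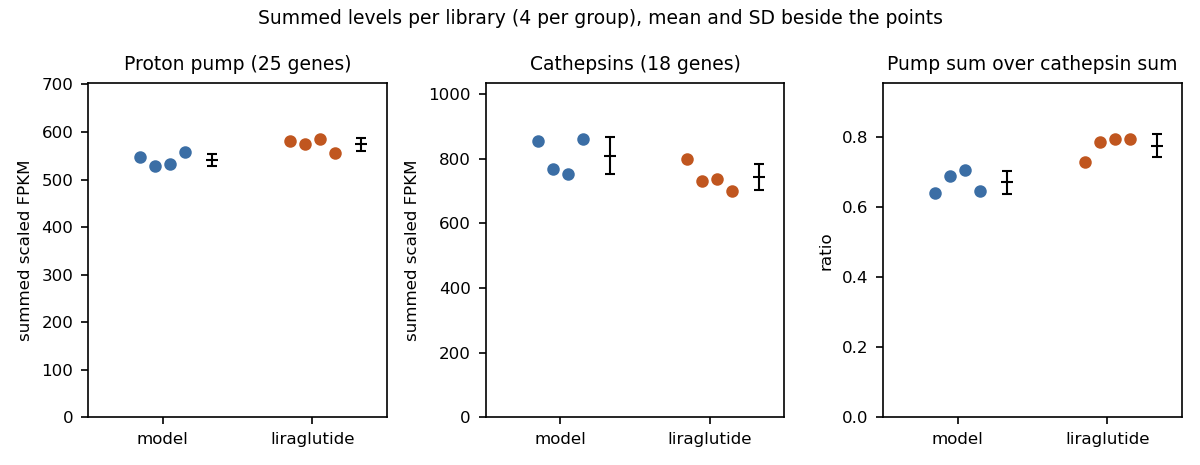
Summed scaled FPKM of 25 pump genes and of 18 cathepsins, and the ratio of the sums, in each library (points), with the mean and SD of 4 libraries beside them. The liraglutide ratios of 0.727 to 0.794 lie above the model ratios of 0.639 to 0.706. The ratio of geometric means, not drawn, overlapped between the groups.

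Where V1 subunits have several genes, 1 dominated: Atp6v1b2 made up at least 99.9% of its family per length, Atp6v1c1 at least 99.2% and Atp6v1g1 at least 98.5%. By level, Atp6v1g1 (peripheral stalk) came first at 103 ± 4.59 scaled FPKM with liraglutide and 97.3 ± 2.54 in the model group (SD, n = 4, as for all such values). Atp6v1e1 (peripheral stalk), Atp6v1f and Atp6v1d (rotor) and Atp6v1b2 (nucleotide-binding subunit B) followed between 28.5 and 74.8. Atp6v1c1, at 12.7 ± 0.544 against 13.0 ± 0.382, and the regulatory subunit gene Atp6v1h, at 4.33 ± 0.493 against 4.76 ± 0.516, were lower. The catalytic subunit gene Atp6v1a was at 6.45 ± 0.735 against 7.93 ± 1.56. The neuronal form Atp6v1g2 was lowest of the tested V1 genes, near 1 scaled FPKM.

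Atp6v1f (Entrez gene 66144), whose protein is part of the rotor, stood at 75.9, 76.9, 79.3 and 67.2 scaled FPKM in liraglutide libraries 1 to 4. In model libraries 1 to 4 it stood at 61.4, 61.2, 62.1 and 61.2, the tightest group of any tested member. The groups did not overlap, which held in the upward direction for 9.61% of all tested genes. Atp6v1f rose 1.22-fold (log2 fold change 0.28, standard error 0.0583; adjusted p = 0.0161 in edgeR). The call ended without model 1 (adjusted p = 0.0517), without liraglutide 2 and model 3 together (0.0707), with an offset for gene length (0.0569) and with one for length and GC content (0.0998).

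Atp6v1d, the other rotor gene, also had groups that did not overlap, at 43.3 to 49.8 scaled FPKM with liraglutide and 41.3 to 42.9 without. It did not pass (log2 fold change 0.16, interval 0.04 to 0.28, edgeR adjusted p = 0.0897). With an offset for gene length and GC content it passed, at a log2 fold change of 0.25 and an adjusted p of 0.0311.

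Atp6v1a (Entrez gene 11964) measured 7.06, 5.95, 5.69 and 7.10 scaled FPKM with liraglutide and 7.59, 7.13, 6.79 and 10.2 in the model group. Model 4 was the high library, and the groups overlapped. The difference did not pass (log2 fold change -0.30, interval -0.59 to -0.01, edgeR adjusted p = 0.18), and it was -0.15 without model 4. The other V1 genes, Atp6v1b2, Atp6v1c1, Atp6v1e1, Atp6v1g1, Atp6v1g2 and Atp6v1h, had log2 fold changes of -0.23 to 0.12 and were not called.

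**Figure D3:**
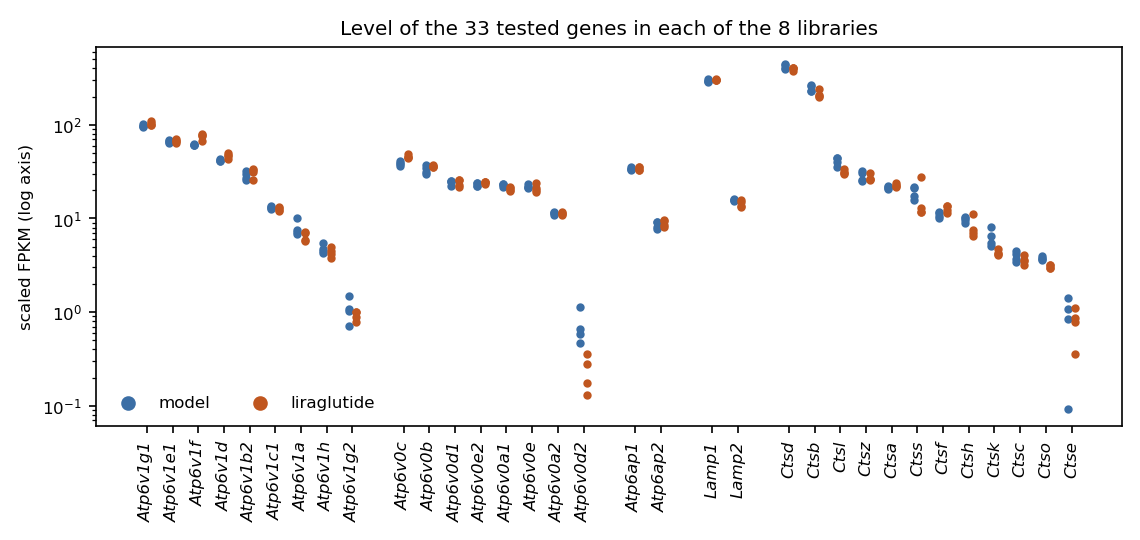
Level (scaled FPKM, log axis) of each tested gene in 4 model and 4 liraglutide libraries, grouped from left to right as V1, V0, accessory proteins, LAMP genes and cathepsins and ordered by the model mean. For most genes the groups lie on top of each other, and Ctse of model 2 is the lowest point.

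The membrane sector held the second gene called higher and the single one called lower. Atp6v0c (Entrez gene 11984) encodes the proteolipid that forms most of the proton-carrying ring. It measured 44.3, 45.1, 48.2 and 44.9 scaled FPKM with liraglutide and 41.0, 38.1, 36.6 and 39.3 without, with no overlap. The rise was 1.18-fold (log2 fold change 0.24, standard error 0.0536; adjusted p = 0.0239 in edgeR). The call ended on leaving out liraglutide 3, model 2, model 3 or model 4 (adjusted p up to 0.0687), without liraglutide 2 and model 3 together (0.087), with the length offset (0.0573), with GC added to it (0.0785), with raw library sizes (0.0748) and in limma (0.0558 and 0.0572 with pseudocounts of 1 and 0.1). RefSeq lists pseudogene copies of Atp6v0c, so its counts are uncertain to the extent that reads were shared with them. The companion ring gene Atp6v0b stood at 36.2 ± 1.04 against 33.2 ± 2.95 and was not called.

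Atp6v0d2 (Entrez gene 242341) encodes an alternative form of subunit d, which couples the rotor to the ring. In mice it is best known from osteoclasts and macrophages. It had 9, 26, 19 and 12 counts in liraglutide libraries 1 to 4 and 44, 29, 40 and 80 counts in model libraries 1 to 4. The corresponding levels were 0.13 to 0.355 and 0.463 to 1.15 scaled FPKM, so each model library was above each liraglutide library, at a depth where counting error is large. In edgeR the log2 fold change was -1.60 (standard error 0.369, adjusted p = 0.0249), so Atp6v0d2 was 3.03-fold lower. Without liraglutide 2 and model 3 it was -1.96 (adjusted p = 0.0333), but the call ended on leaving out liraglutide 1, liraglutide 3, liraglutide 4, model 1 or model 4 alone (adjusted p up to 0.0631, log2 fold changes -1.27 to -1.87 over all single omissions). Its general counterpart Atp6v0d1 stood at 24 ± 2.1 against 24.1 ± 1.49 scaled FPKM. Atp6v0d2 thus made up 0.564% to 1.62% of subunit d transcripts per length with liraglutide and 1.83% to 4.5% without.

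Markers of osteoclasts, macrophages and epididymis were read beside Atp6v0d2. Of 5 osteoclast markers, 2 were tested, 1 with a positive and 1 with a negative log2 fold change. The negative one, Acp5 (tartrate-resistant acid phosphatase, also a macrophage gene), was called and was the most abundant of the list. Acp5 measured 5.87 to 8.49 scaled FPKM with liraglutide and 8.74 to 17.8 without, and fell by 0.89 on the log2 scale (edgeR adjusted p = 0.0215). That call ended on leaving out liraglutide 1, liraglutide 3, model 1 or model 4 (adjusted p up to 0.0584). Of the osteoclast fusion genes, named after their values were seen, Dcstamp had 1 to 2 counts per library with liraglutide and 2 to 10 without. Ocstamp had 2 to 5 with liraglutide and 1 to 4 without. The summed list ran from 15.1 to 30.1 CPM with liraglutide and from 25.4 to 41.1 without. Of 13 macrophage markers 0 were called in edgeR and 9 had negative log2 fold changes, with sums of 312 to 512 CPM against 382 to 463. Epididymis markers summed to 35 to 55.8 CPM in the model libraries and to 0.474 to 2.29 CPM in liraglutide 1, 3 and 4. In liraglutide 2, which had 26 counts of Atp6v0d2, the most of its group, they summed to 148 CPM. The part of any of these cell types in the change of Atp6v0d2 was not tested.

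The other V0 genes were steady. Atp6v0a1 and Atp6v0a2, which form the proton channel beside the ring, stood at 20.7 ± 0.955 against 22.8 ± 0.842 and at 11.4 ± 0.32 against 11.4 ± 0.349 scaled FPKM. The groups of Atp6v0a1 did not overlap, downward, as in 8.67% of all tested genes, without a call (log2 fold change -0.14, interval -0.25 to -0.03, edgeR adjusted p = 0.115); with raw library sizes it was called (0.0196). Atp6v0e and Atp6v0e2, small subunits of less defined role, shared their family almost evenly, with Atp6v0e2 at 50.5% to 55.9% of the sum. The accessory proteins encoded by Atp6ap1, which takes part in pump assembly, and Atp6ap2, also known as the prorenin receptor, had log2 fold changes of 0.0089 and 0.053.

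Several alternative forms of pump subunits were almost absent. Atp6v1b1 and Atp6v0a4, the kidney and epididymal forms, had 0 to 1 and 4 to 14 counts per library, Atp6v1g3 0 to 1 and Atp6v1c2 0 to 7. Atp6v1e2 had 0 counts in every library, where a count of 0 allows up to 0.164 to 0.2 CPM per library, covering counting error only. In liraglutide 2, the library with the most epididymis marker RNA, Atp6v0a4 had 6 counts and Atp6v1b1 and Atp6v1g3 had 0. Atp6v1c2 had 7 counts there, its highest value. Among 6 clear and intercalated cell markers, Slc26a4 and Aqp6 were at 0 in all libraries and the sum, nearly all Car2, was 9.55 to 17.7 CPM. Atp6v1g2, a form known from neurons, had 22 to 47 counts per library.

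The LAMP glycoproteins line the inner face of the lysosomal membrane. Lamp1 (Entrez gene 16783) measured 300, 303, 310 and 298 scaled FPKM with liraglutide and 292, 287, 291 and 307 without, and the groups overlapped. Its log2 fold change was 0.039 with an interval of -0.04 to 0.12 (edgeR adjusted p = 0.55), and it was -0.037 with raw library sizes. Lamp2 (Entrez gene 16784) measured 15.7, 13.5, 14.9 and 13.4 against 16.3, 15.8, 15.3 and 15.7. Liraglutide 1 reached the model range and the others lay below it. The difference did not pass (log2 fold change -0.13, interval -0.27 to 0.00, edgeR adjusted p = 0.191), although with raw library sizes it did (0.0417), and an offset for length and GC turned it to 0.077.

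Cathepsin RNA in these muscles was mainly Ctsd and Ctsb. Per length, the aspartic protease gene Ctsd made up 50.3% to 55.8% of the class, the cysteine protease gene Ctsb 27.1% to 30.6% and the cysteine protease gene Ctsl 4.12% to 5.17%. Ctsd (Entrez gene 13033) measured 401, 408, 408 and 372 scaled FPKM with liraglutide and 435, 404, 391 and 443 without. The ranges overlapped, and the log2 fold change of -0.075 (interval -0.19 to 0.04, edgeR adjusted p = 0.398) was not called.

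Ctsl (Entrez gene 13039), a lysosomal endopeptidase that is also known as a gene induced in muscle atrophy, had the smallest p of the cathepsins. It measured 33.8, 30.2, 31 and 30.5 scaled FPKM with liraglutide and 43.7, 39.7, 35.1 and 44.6 without. Every liraglutide library was below every model library, with liraglutide 1 and model 3 closest. Ctsl was 1.3-fold lower (log2 fold change -0.38, standard error 0.0775; adjusted p = 0.0159 in edgeR). The call held without liraglutide 2 and model 3 (log2 fold change -0.43, adjusted p = 0.0146), and ended without model 1 (0.0537) and with the length and GC offset (0.0752).

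Ctsk (Entrez gene 13038), the collagen-degrading protease of osteoclasts that fibroblasts also make, measured 4.78, 4.24, 4.12 and 4.18 scaled FPKM with liraglutide. In the model group it measured 8.02, 5.09, 5.51 and 6.49, with model 1 highest and no overlap. The level was 1.45-fold lower with liraglutide (log2 fold change -0.54, standard error 0.146; adjusted p = 0.0464 in edgeR). The call ended on leaving out any single library other than model 2 (adjusted p up to 0.106), without liraglutide 2 and model 3 (0.092), with the length and GC offset (0.0634) and with no filter on low counts (0.0537).

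Ctso (Entrez gene 229445), a cysteine cathepsin of little known function, measured 2.94, 2.96, 3.18 and 3.22 scaled FPKM with liraglutide and 3.99, 3.73, 3.78 and 3.57 without. The groups stood apart, and the log2 fold change was -0.29 (standard error 0.0763; adjusted p = 0.0396 in edgeR). This call ended on leaving out any single library other than liraglutide 4 (adjusted p up to 0.0995), without liraglutide 2 and model 3 (0.158), with the length offset (0.0849), with GC added to it (0.308), with no filter on low counts (0.0572) and in DESeq2 (0.0728).

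**Figure D4:**
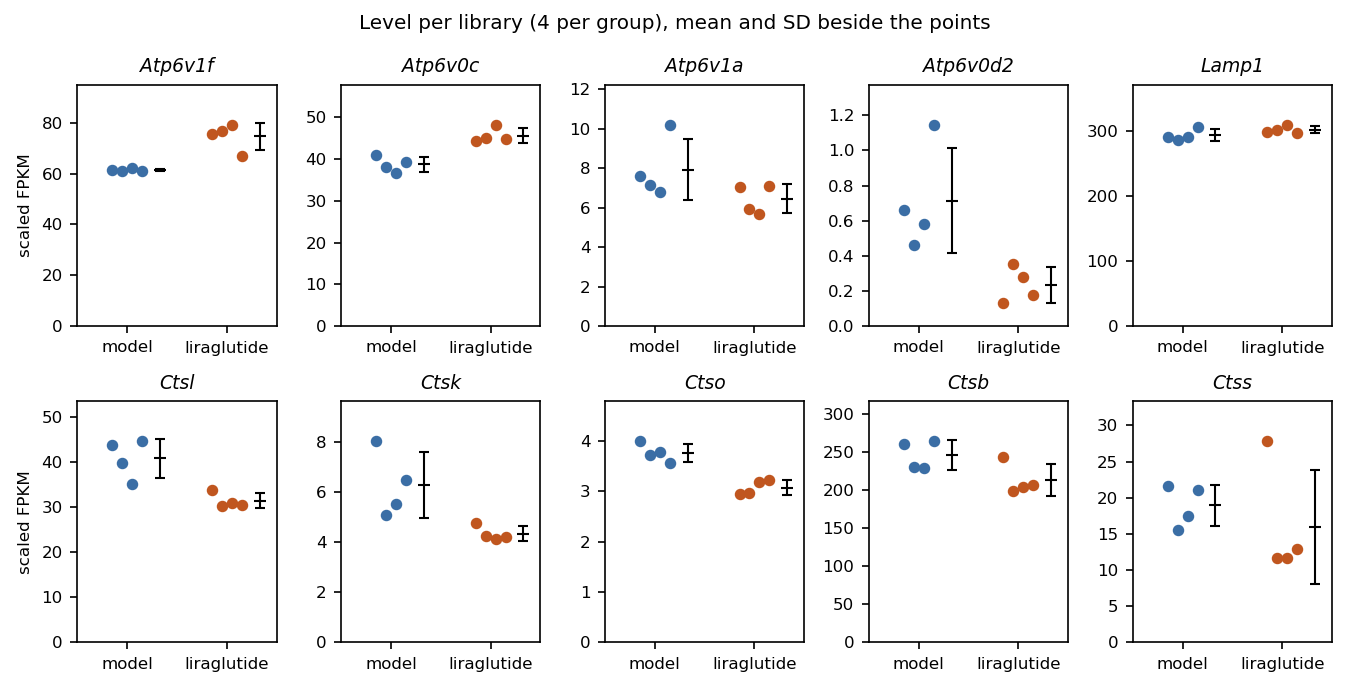
Scaled FPKM of 10 genes in each library (points; 4 model and 4 liraglutide), with the mean and SD of the group beside them. Atp6v1f and Atp6v0c are higher and Atp6v0d2, Ctsl, Ctsk and Ctso lower in each liraglutide library than in any model library, while Atp6v1a, Lamp1, Ctsb and Ctss overlap.

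Ctsb (Entrez gene 13030), an endopeptidase that also removes dipeptides, measured 244, 198, 204 and 207 scaled FPKM with liraglutide and 261, 230, 229 and 264 without. Liraglutide 1 lay within the model range, while the other 3 liraglutide libraries lay below it. The difference was not called (log2 fold change -0.21, interval -0.38 to -0.04, edgeR adjusted p = 0.119) but passed without liraglutide 1 (log2 fold change -0.27, adjusted p = 0.0373) and with raw library sizes (0.0428).

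Ctss and Ctsh showed the same library standing apart. Ctss, the protease that processes the invariant chain in antigen-presenting cells, measured 27.8 scaled FPKM in liraglutide 1, 11.6, 11.7 and 12.9 in the other liraglutide libraries and 15.6 to 21.5 without treatment. The aminopeptidase gene Ctsh measured 11.1 in liraglutide 1, 6.56 to 7.57 elsewhere in that group and 8.84 to 10.3 in the model group. Neither was called (edgeR adjusted p = 0.616 and 0.287). Without liraglutide 1 both were, at log2 fold changes of -0.65 for Ctss (adjusted p = 0.0176) and -0.47 for Ctsh (0.0212). Macrophage markers, led by Lyz2, summed to 512 CPM in liraglutide 1 and to 312 to 323 CPM in the other liraglutide libraries. The part of macrophage RNA in these values was not tested.

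The remaining tested cathepsins did not pass. Ctsf, a cysteine protease, had the largest positive change of the class at 12.7 ± 1.11 against 11 ± 0.724 scaled FPKM (log2 fold change 0.21, interval 0.03 to 0.38, edgeR adjusted p = 0.126). Ctsa, a serine carboxypeptidase that also protects β-galactosidase and neuraminidase, had 0.088, the carboxypeptidase gene Ctsz -0.058, and Ctsc, whose product activates granule serine proteases, -0.13. Ctse, an aspartic protease found outside classical lysosomes, varied most, model 2 holding 3 counts where the rest of its group held 31 to 49.

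Of the cathepsins below the filter, Ctsg, a serine protease of neutrophil granules, had 7, 56, 28 and 12 counts with liraglutide and 9, 1, 8 and 7 without. Liraglutide 2 was the highest and model 2 the lowest. The 10 neutrophil markers, led by S100a9, summed to 347 CPM in liraglutide 2 and to 3.83 CPM in model 2. In the other libraries they summed to 67.8 to 205 CPM. Of 9 tested neutrophil markers 9 had positive log2 fold changes. Among them 1 was called higher and 0 lower, beside 5.45% and 4.83% of all tested genes. Ctsw, known from cytotoxic lymphocytes, had 1 to 7 counts per library, and 7 T and NK cell markers, led by Nkg7, summed to 0.845 to 2.05 CPM. The placental cathepsins Ctsj, Ctsm and Ctsq had 0 counts throughout, and Ctsr had 1 count in all.

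Markers of other cell types were read beside the cathepsins, where 5.45% of all tested genes were called higher and 4.83% lower. Of 8 adipocyte markers, led by Fabp4, 7 were called lower, with sums of 845 to 1258 CPM against 1385 to 2174. Of 8 fibroblast and progenitor markers, led by Dcn, 2 were called lower and 0 higher, with sums of 782 to 1231 CPM against 1205 to 1245. Mast cell markers (6, led by Mcpt4; 22.2 to 29.8 CPM against 28.9 to 38.3) and endothelial markers (6, led by Cdh5; 303 to 336 CPM against 331 to 386) had 0 calls in edgeR. The part of the lower adipocyte and fibroblast markers in the lower Ctsl, Ctsk and Ctso was not tested.

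Gene length moved with direction among the pump genes. The 10 with positive changes had a median length of 1536 bases and the 9 with negative changes one of 4069 bases, beside 3595 bases for all tested genes. Cathepsins went the other way, at 2863.5 bases for the 2 with positive and 1946.5 bases for the 10 with negative changes. Across all tested genes, a library's deviation correlated with log2 length at -0.1615 to 0.0159 with liraglutide and 0.0249 to 0.15 without, and with GC content at 0.117 to 0.152 and -0.198 to -0.0913. With an offset for both, 1 pump gene was higher (Atp6v1d) and 1 lower (Atp6v0d2) and 0 cathepsins were called, where 5.31% of all genes were called (3.12% higher and 2.2% lower). The medians were then 0.044 and -0.16. At an unadjusted p under 0.05, 6 pump genes and 5 cathepsins passed without the offset, beside 26.5% of all tested genes.

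Genes around the pump and the cathepsins were read from fixed lists. The counts of called genes in these lists stand beside 10.3% called over all tested genes, 5.45% higher and 4.83% lower. Among 33 tested lysosomal hydrolases, 1 was called higher and 3 lower (median log2 fold change -0.12). Gaa, the acid α-glucosidase that degrades lysosomal glycogen, rose from 98.8 ± 1.66 to 118 ± 5.71 scaled FPKM (edgeR adjusted p = 0.00898). Lipa, the acid lipase, fell from 7.07 ± 0.957 to 4.21 ± 0.747 (adjusted p = 0.0106), and the acid galactosidase gene Glb1 fell by 0.70 on the log2 scale. Of 5 activator and transport proteins 2 were lower: the cholesterol carrier Npc2 fell from 29.8 ± 4.14 to 18.9 ± 1.31 (edgeR adjusted p = 0.00425) and the ganglioside activator Gm2a fell by 0.45. The calls of Gaa, Lipa and Npc2 held on leaving out each library in turn. That of Glb1 held on leaving out 1 of the 8, and that of Gm2a on leaving out 5. With the length and GC offset Gaa was at adjusted p = 0.0752 and Glb1 at 0.0506, and without liraglutide 2 and model 3 Glb1 was at 0.112.

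Of 22 tested lysosomal membrane proteins and channels 0 were called in edgeR, the smallest p being that of the channel gene Tpcn2 (unadjusted 0.0383, log2 fold change -0.39). Among 12 pump subunits, assembly factors and regulators outside the symbol rule, Dmxl2, whose product promotes joining of V1 to V0, and the assembly factor gene Vma21 fell, by 0.47 and 0.22 (edgeR adjusted p = 0.03 and 0.0432). With the length and GC offset these were at adjusted p = 0.12 and 0.948, and they held on leaving out 1 and 0 of the 8 libraries. Without liraglutide 2 and model 3 they were at 0.11 and 0.0985. Tcirg1, the subunit a of osteoclast and macrophage lysosomes, named after its values were seen, stood at 2.88 ± 0.383 against 2.96 ± 0.334 scaled FPKM.

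Of 4 tested cathepsin inhibitors, 2 were called higher and 0 lower: Cst6 rose from 3.45 ± 0.211 to 4.88 ± 0.623 scaled FPKM (edgeR adjusted p = 0.013) and Cst3, cystatin C, from 387 ± 15.3 to 464 ± 49.8 (0.0491). Cst6 held its call on leaving out each library in turn but not without liraglutide 2 and model 3 together (0.0537), and Cst3 on leaving out 2 of the 8. Cst3 was at adjusted p = 0.171 without that pair and at 0.398 with the length and GC offset. Of 9 genes of mannose 6-phosphate sorting, by which hydrolases reach lysosomes, Gga1 rose 1.22-fold (edgeR adjusted p = 0.00798). Of 16 tested transcription factors and nutrient-sensing scaffold genes, Lamtor1 and Lamtor4, of the Ragulator complex on the lysosome, rose 1.26-fold and 1.21-fold (edgeR adjusted p = 0.013 and 0.0298) and 0 fell. Leaving out each library in turn kept Gga1 and Lamtor1 called, while Lamtor4 stayed called on leaving out 1 of the 8. With the length and GC offset Gga1 and Lamtor4 were at adjusted p = 0.107 and 0.263, and without liraglutide 2 and model 3 Lamtor1 and Lamtor4 were at 0.0538 and 0.151. Tfeb, the best known transcription factor of lysosomal genes, named after its values were seen, stood at 11.7 ± 1.26 against 10.1 ± 0.763 scaled FPKM and was not called (edgeR adjusted p = 0.157).

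Factors of the TFEB family bind a palindrome built on CACGTG, so member promoters were searched for those letters and for the longer TCACGTGA, which contains them. Both read the same on either strand. RefSeq windows (GRCm38.p6, 250 bases before to 50 after a gene's start) were found for 35 of the 46 genes and were missing for Atp6ap1l, Atp6v0a2, Atp6v0d2, Atp6v1b2, Atp6v1c1, Atp6v1g1, Atp6v1h, Ctsb, Ctse, Ctsh and Ctsw. CACGTG was in 4 of 18 pump genes (22.2%), 4 of 14 cathepsins (28.6%) and Lamp1, beside 8.09% of all genes with a window and 11.7% of those tested here. TCACGTGA was in 3 of 18 pump genes (16.7%) and 2 of 14 cathepsins (14.3%), beside 1.12% of all genes and 2.15% of those tested. Among tested members with a window, CACGTG was in 4 of 13 pump genes and 4 of 9 cathepsins, and TCACGTGA in 3 and 2. A match is a description of the letters, not a binding site. Stretches before the start are shown for 6 genes with the matches in capitals, to set the called Ctsl beside uncalled members. They lie at chr13:64370739-64370768 (minus strand) for Ctsl, chr7:142387907-142387938 (minus) for Ctsd, chr8:13159088-13159160 (plus) for Lamp1, chr16:44139372-44139403 (minus) for Atp6v1a, chr4:117887330-117887377 (minus) for Atp6v0b and chr19:4855074-4855103 (plus) for Ctsf.
Ctsl: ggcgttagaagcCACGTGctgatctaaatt
Ctsd: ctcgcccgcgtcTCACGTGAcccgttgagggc
Lamp1: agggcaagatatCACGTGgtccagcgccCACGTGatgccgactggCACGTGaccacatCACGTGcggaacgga
Atp6v1a: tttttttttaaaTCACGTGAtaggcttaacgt
Atp6v0b: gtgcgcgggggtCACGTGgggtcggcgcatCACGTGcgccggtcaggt
Ctsf: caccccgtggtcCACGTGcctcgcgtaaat

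Lamp1 held 4 matches between positions -61 and -15 from the start and Atp6v0b held 2, at -36 and -18, and neither gene was called. In Ctsa, Atp6v0d1 and Atp6v0e the matches lay at or within 13 bases of the start. Atp6v1a had the long form at -132, and Ctsd had it at -99 and the short form at -245. Of the 6 called members 5 had a window, and Ctsl, with its match at -236, was the single one with CACGTG.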

How the data were processed

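The deposited table holds, per the file headers, a raw count and an FPKM value for each gene in each of 8 muscle libraries. Per the submitters' processing notes, Trimmomatic, HISAT2, Cufflinks, HTSeq and DESeq were used; their versions are not given in the sources used here. The notes name the human build GRCh38, although all 46 genes described carry mouse gene identifiers, so no coordinates of the measured genes are given. Count, library total and deposited FPKM together imply a gene length. For 17484 of 17484 genes with a count, it was the same within 0.01 base in every library with a count. For genes counted in a single library this holds by construction. Libraries were stranded and from polyadenylated RNA, per the labels' protocols; how strand was used in counting is not given in the sources used here.

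Counts were tested with edgeR 4.0.16 in R 4.3.3 (TMM scaling, filterByExpr with a minimum count of 10, quasi-likelihood test, Benjamini-Hochberg over 12963 genes; biological coefficient of variation 13.7%), and the procedure was tested on simulated data. Alternatives used DESeq2 1.42.0, limma 3.58.1 on log2(FPKM + 1) or log2(FPKM + 0.1), other scalings and filters, loess offsets (span 0.5) for gene length and GC content (GC known for 98.3% of tested genes), a replicate block and omitted libraries. The members and gene lists were chosen with earlier results of these data known. Values in each library are given for called members and for Atp6v1a, Atp6v0c, Ctsb, Ctsd, Ctsl, Lamp1 and Lamp2. From each other list up to 3 called genes, or otherwise the gene of smallest p, are named, and from each marker list the most abundant gene. Some genes that these rules would name are not reported here, although counts of genes include them.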

Additional observations from a re-analysis of the deposited data

Results flagged for a closer look

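In 3 of 66 sets of 4 libraries (33 genes in each group), the extreme library stood apart from the others by more than the critical share of the range in Dixon's test. Chance flags about 1 set in 20. Ctss stood at 27.8 scaled FPKM in liraglutide 1 against 11.6 to 12.9 in the other liraglutide libraries, where macrophage markers were also highest. Atp6v1g1 stood at 101 in model 4 against 95.7 to 96.6 in the other model libraries. Atp6v0e stood at 23.6 in model 1 against 21.3 to 21.7 in the others.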

How the results depend on the processing

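The excess of the pump median over the cathepsin median kept its sign in all 19 alternatives, at 0.135 to 0.266 over single omissions and 0.155 to 0.209 over the others, and the cathepsin median stayed negative (-0.258 to -0.12 over single omissions). The counts of called genes moved more. Leaving out each library in turn gave 1 to 3 pump genes higher and 0 to 1 lower, 0 to 4 cathepsins lower, and 615 to 1231 calls in all (344 to 662 higher, 271 to 569 lower), against 1333 (707 and 626). Omission of liraglutide 2 with model 3 gave 697 calls (365 and 332), with 0 pump genes higher and 1 cathepsin lower. The length and GC offset gave 677 (397 and 280), with 1 pump gene higher, 0 cathepsins lower and a pump median of 0.044; the length offset gave 362 lower in all and 0 pump genes higher. Raw library sizes gave 338 higher and 1241 lower, with 1 pump gene higher and 2 lower. Limma gave 359 and 1049 with a pseudocount of 1 and 352 and 1013 with 0.1, each with 1 pump gene higher and 2 lower. Without a filter on low counts 1 cathepsin was lower, the calls of Ctsk and Ctso having ended. The cause of these shifts was not tested.

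The pump median was -0.067 with raw library sizes, -0.065 in limma with a pseudocount of 1 and -0.067 with 0.1. Single genes that changed sign were not called in either setting. They were Atp6v0a2 (0.0023 with RLE factors, 0.0024 in DESeq2, 0.084 with the length offset and 0.060 with GC added); Atp6v1e1 (-0.059 with raw sizes, -0.027 and -0.0018 with the offsets, -0.058 and -0.059 in limma); Atp6v0e2 (-0.018, and -0.016 and -0.017 in limma); Atp6ap1 (-0.067, and -0.065 and -0.067 in limma, -0.0088 without liraglutide 2 and model 3); Atp6ap2 (-0.025, and -0.020 and -0.022 in limma) and Lamp1 (-0.037, and -0.036 in limma under both pseudocounts). With the offsets Ctsc was 0.0044 and 0.077, and with GC added Atp6v1c1 was 0.046, Atp6v1h 0.066 and Lamp2 0.077. Ctse was 0.065 in limma with 0.1 and Atp6v1g2 0.027 without liraglutide 2 and model 3. The median of all genes was 0.043 and 0.050 with the offsets. Over single omissions the log2 fold changes of Atp6ap1, Atp6v0a2, Atp6v0d1, Atp6v1e1, Ctse and Ctsz ran from -0.0048 to 0.033, -0.020 to 0.016, -0.051 to 0.048, -0.0035 to 0.036, -0.519 to 0.184 and -0.118 to 0.00095.

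Libraries of the same number correlated in their deviations at 0.149, -0.0275, 0.143 and 0.0648, and those of different number at -0.185 to 0.14. These values do not settle whether the numbers pair the mice. The labels do not say that they do, so the main fit used no pairing. With the replicate number as a block 1 pump gene was higher, 0 were lower and 2 cathepsins were lower, of 1035 calls in all. The calls of Atp6v0c, Atp6v0d2 and Ctso ended under the block (adjusted p = 0.0631, 0.0554 and 0.0888). Atp6v0d2, with 9 to 80 counts per library, and Atp6v1g2 and Ctse, with 3 to 49, have wide intervals.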
